A study of Mus musculus with 12 samples.

Results

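Genes for 9 surface and adhesion proteins, most of them used as labels of mouse spermatogonia, were followed across the 12 arrays: Cdh1, Mcam, Cd9, Thy1, Itga6, Itgb1, Epcam, Adgrl3 and Ildr2. They were found by their gene symbol in the platform annotation, taking for each gene the transcript cluster (the probe set that reads 1 transcript) of highest mean level, and all 9 of 9 were measured, out of 22180 genes. Earlier results of the knockout against wild type were known when the members were chosen. Their knockout values are therefore given as a description with no p-value.

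The study asked how SOXB1 transcription factors act in the developing testis, using C57BL/6N mice made with CRISPR/Cas9. Each array held RNA from a whole testis at 2 weeks of age. There were 3 Sox3-KO testes (KO), 3 Sox3-Sox2KI testes (KI, named for a Sox2 knock-in at Sox3) and 6 wild-type testes. The wild types came from KI litters (WT 1 to WT 3) and from KO litters (WT 4 to WT 6), and no group received a treatment. The deletion was in the whole animal, and a testis at this age holds spermatogonia and early meiotic cells together with somatic cells. A level in the whole organ cannot tell fewer cells of a type from less RNA per cell. The labels call the arrays biological replicates of independent testes.

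Spermatogonia are the mitotic germ cells of the seminiferous tubule, and a small undifferentiated fraction of them holds the stem cells. They rest on the basement membrane, whose laminins bind integrins, and touch Sertoli cells through cadherins and other adhesion proteins. Surface proteins such as the alpha6 and beta1 integrins, CD9, THY1, EPCAM and E-cadherin are widely used to sort these cells. SOX3 is a transcription factor made in undifferentiated spermatogonia and progenitors.

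All values are log2 signals as deposited, so a difference of 1 is a doubling and levels of different genes are not set against each other. Array medians lay between 5.74 and 5.82, and correlations between arrays over all genes lay between 0.978 and 0.995. Olfactory receptor genes, taken as not expressed, gave a background limit of 5.33 at their 95th percentile. Mean levels above that limit were found for 15 of 17 markers of undifferentiated spermatogonia, all 14 meiotic markers and all 12 Sertoli markers. Sox3 lay at 7.28 ± 0.06 (SD, n = 6) in WT and at 6.57, 6.596 and 6.65 in KO. In KI it lay at 7.26, 6.75 and 6.95, so that the array labelled KI 1 was inside the WT range of 7.21 to 7.36 while the other KI arrays were below it. Whether the Sox3 probes lie in the replaced sequence is not known here. Differences of the 9 genes between KI and other groups are given with and without that array.

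The KO testes had higher levels of 6 of the 9 genes, by 0.38 to 0.99 on the log2 scale: Adgrl3, Ildr2, Cdh1, Cd9, Mcam and Itga6. In each of these 6 genes every KO array lay above every WT array. Itgb1 was 0.17 higher with overlapping arrays, and Epcam and Thy1 were 0.03 and 0.06 lower. limma with Benjamini-Hochberg adjustment called the same 6 genes at 0.05, against 4.86% of all 22180 genes in either direction and 2.52% higher. Because this contrast was in view when the genes were picked, nothing is read from that count. The members' median difference was 0.40, beside 0.04 over all genes. KO arrays lay wholly above WT arrays for 6.87% of all genes.

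**Figure D1:**
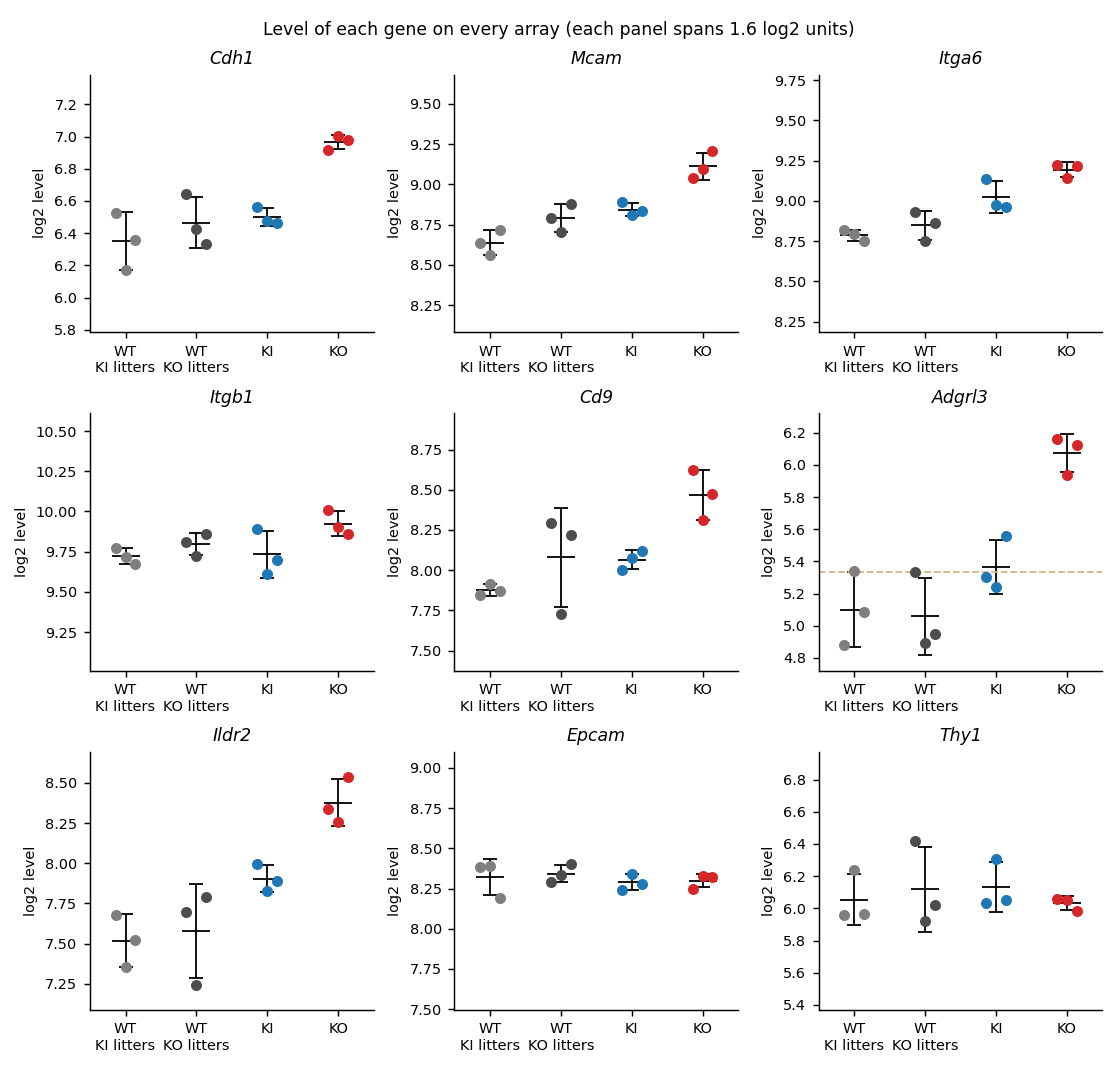
Log2 level of each of the 9 genes on all 12 arrays, one panel per gene, with arrays grouped by label (from the left, WT of KI litters, WT of KO litters, KI, KO). Bars are mean ± SD, n = 3, and the dashed line in the Adgrl3 panel is the background limit of 5.33. The KO points sit above every WT point for Cdh1, Mcam, Cd9, Itga6, Adgrl3 and Ildr2, and among the WT points for Thy1 and Epcam.

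The number of calls depended on which arrays were used. It stayed at 6 without KO 2, WT 4 or WT 6, and was 5 without any 1 of the KI arrays. Without KO 1 or without KO 3 none of the 9 was called, without WT 3 or without WT 5 there were 2, without WT 1 or without WT 2 there were 3, against the WT of KO litters alone there were 0, and with KI left out of the fit there were 2 (Adgrl3 and Ildr2). The differences moved less: with any 1 array left out, Adgrl3 stayed between 0.95 and 1.06, Ildr2 between 0.75 and 0.89, Cdh1 between 0.51 and 0.61, Cd9 between 0.41 and 0.57, Mcam between 0.35 and 0.44 and Itga6 between 0.36 and 0.40.

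Adgrl3, a latrophilin, is an adhesion G protein-coupled receptor that binds teneurins and FLRT proteins on neighbouring cells. It stood at 6.16, 5.94 and 6.12 in KO, at 5.30, 5.24 and 5.56 in KI, and at 4.88 to 5.34 with a median of 5.02 in WT. The KO arrays were all above the background limit, 1 of 3 KI arrays was, and 2 of 6 WT arrays were. The KO mean of 6.07 ± 0.12 (SD, n = 3) against the WT mean of 5.08 ± 0.21 (SD, n = 6) gave a difference of 0.99 (95% confidence interval 0.73 to 1.26), whose fold size is not fixed because most WT arrays were under the limit.

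Ildr2, an immunoglobulin-like receptor of the angulin family, lay at 8.34, 8.26 and 8.54 in KO and at 7.996, 7.83 and 7.89 in KI. In WT it ran from 7.24 to 7.79 with a median of 7.60. Neither mutant group overlapped WT, and the KI values fell between the WT and KO values. The KO mean of 8.38 ± 0.14 (SD, n = 3) was 0.83 above the WT mean of 7.55 ± 0.21 (SD, n = 6; 95% interval of the difference 0.57 to 1.09), or 1.78-fold.

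Cdh1, which encodes E-cadherin, the homophilic adhesion protein of epithelia, lay at 6.92, 7.003 and 6.98 in KO. It lay at 6.56, 6.48 and 6.46 in KI and between 6.17 and 6.64 with a median of 6.39 in WT. Only the KO arrays stood apart, and the KI arrays fell within the WT range. The KO mean was 0.56 higher (95% interval 0.36 to 0.76), or 1.47-fold.

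Mcam, the immunoglobulin-type adhesion protein CD146, lay at 9.04, 9.09 and 9.21 in KO, at 8.89, 8.81 and 8.83 in KI, and between 8.56 and 8.88 with a median of 8.71 in WT. The lowest KO array was above the highest WT and the highest KI array. The KO mean was 0.40 higher (95% interval 0.23 to 0.56), or 1.32-fold. MCAM is also found on endothelial cells and pericytes.

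Cd9 encodes a tetraspanin, a membrane protein that gathers integrins and other partners. It lay at 8.62, 8.31 and 8.48 in KO and at 8.001, 8.08 and 8.12 in KI. In WT it ran from 7.73 to 8.30 with a median of 7.89, and WT 4 (8.30) and WT 6 (8.22) lay close to the lowest KO array. The KO mean was 0.49 higher (95% interval 0.23 to 0.75), or 1.40-fold.

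Itga6, the alpha6 chain of laminin receptors, lay at 9.22, 9.14 and 9.22 in KO and at 9.14, 8.97 and 8.96 in KI. In WT it ran from 8.75 to 8.93 with a median of 8.81 (8.805 before rounding). Every mutant array lay above every WT array, and the array labelled KI 1 lay just under the lowest KO array. The KO mean was 0.38 higher (95% interval 0.23 to 0.52), or 1.30-fold. Itgb1, the beta1 chain that pairs with alpha6 and with many other alpha chains, lay at 10.01, 9.90 and 9.86 in KO, at 9.89, 9.61 and 9.70 in KI, and between 9.67 and 9.86 in WT. Its groups overlapped, and the KO mean was 0.17 higher (95% interval 0.00 to 0.33).

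Epcam, an epithelial adhesion molecule, lay at 8.25, 8.33 and 8.32 in KO, at 8.24, 8.34 and 8.28 in KI, and between 8.19 and 8.40 in WT. Thy1, a glycolipid-anchored surface protein also found on T cells, lay at 6.06, 6.05 and 5.98 in KO, at 6.04, 6.31 and 6.05 in KI, and between 5.92 and 6.42 in WT. Groups overlapped for both genes. The KO difference was -0.03 (95% interval -0.17 to 0.11) for Epcam and -0.06 (95% interval -0.30 to 0.19) for Thy1.

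**Figure D2:**
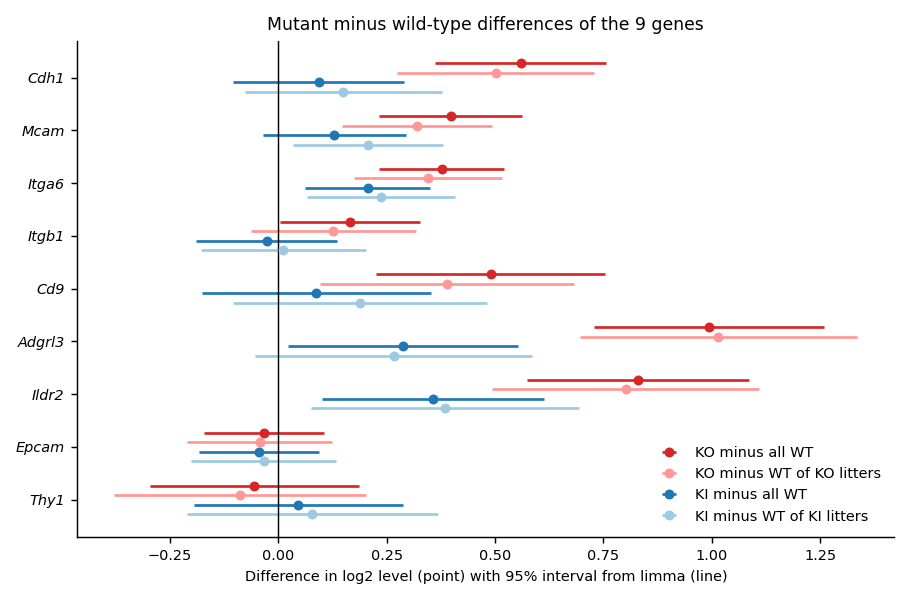
Difference in log2 level with its 95% confidence interval for each of the 9 genes, with KO in red and KI in blue, against all 6 WT arrays (dark) or against the 3 WT arrays of the same litter origin (light). In KO against WT the differences run from -0.06 for Thy1 to 0.99 for Adgrl3, and in KI against WT from -0.04 for Epcam to 0.36 for Ildr2.

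Because 4 of the higher genes had a promoter window in the RefSeq table (GRCm38.p6), the 250 bases before the transcription start are shown for them, read 5′ to 3′ along the gene's strand. Capitals mark a match to ACAAT, a core letter string of SOX factors, or to its reverse complement ATTGT. Adgrl3 had 3 windows, of which the one with a match is shown (chr5:81021343-81021592, plus strand). The others are Ildr2 (chr1:166253889-166254138, plus strand), Mcam (chr9:44134408-44134657, plus strand) and Cd9 (chr6:125494761-125495010, minus strand).
Adgrl3: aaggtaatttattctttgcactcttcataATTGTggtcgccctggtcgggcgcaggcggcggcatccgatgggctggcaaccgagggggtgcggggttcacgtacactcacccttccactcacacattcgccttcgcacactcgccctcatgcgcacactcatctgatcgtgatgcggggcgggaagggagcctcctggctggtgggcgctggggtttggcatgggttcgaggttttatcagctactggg
Ildr2: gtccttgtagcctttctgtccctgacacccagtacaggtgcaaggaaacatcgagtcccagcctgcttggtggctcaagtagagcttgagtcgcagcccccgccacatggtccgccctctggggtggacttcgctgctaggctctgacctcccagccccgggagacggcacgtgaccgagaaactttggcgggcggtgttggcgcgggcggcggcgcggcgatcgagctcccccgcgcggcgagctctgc
Mcam: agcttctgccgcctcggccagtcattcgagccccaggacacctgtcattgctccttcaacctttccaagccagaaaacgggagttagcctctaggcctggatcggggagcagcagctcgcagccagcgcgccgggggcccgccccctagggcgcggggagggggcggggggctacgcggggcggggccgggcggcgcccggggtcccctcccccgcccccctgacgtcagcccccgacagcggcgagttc
Cd9: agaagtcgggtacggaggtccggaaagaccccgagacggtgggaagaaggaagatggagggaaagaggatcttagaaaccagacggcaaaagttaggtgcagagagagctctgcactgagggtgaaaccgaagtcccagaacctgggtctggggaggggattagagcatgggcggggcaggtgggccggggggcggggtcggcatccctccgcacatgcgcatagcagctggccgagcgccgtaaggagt

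Over the 8 windows of 6 members with an entry (Adgrl3, Ildr2, Mcam, Cd9, Itgb1 and Epcam), ACAAT on either strand occurred in 1, the Adgrl3 window above, 221 bases before the start. It occurred in 27.7% of all 32851 mouse windows of the same length. ACAAAG (reverse complement CTTTGT), a letter string of SOX and TCF/LEF factors, occurred in 1 of the 8, the Itgb1 window, 85 bases before the start, against 16.5% of all windows. The 8 windows held 8 to 36 CpG pairs, against a median of 6 over all windows. A match is a string of letters and not a bound site.

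The KI testes were compared with all 6 WT arrays, the same arrays that served the KO comparison. That comparison was in view when the 9 genes were picked, so their KI differences are not independent of the choice. The values, p-values and separations of the 9 genes in KI are therefore a description. Ildr2, Itga6 and Adgrl3 had the highest differences among the 9, and none of the 9 passed the adjusted threshold, although these 3 had an unadjusted p under 0.05. limma called 0 of all 22180 genes (0.0%), with a trend and robust prior also 0, while 1163 genes (5.24%) had an unadjusted p under 0.05. Ildr2 was 0.36 higher (95% interval 0.10 to 0.61, adjusted p = 0.945) and higher in 3 of 3 KI arrays than in any WT array. Itga6 was 0.21 higher (95% interval 0.06 to 0.35, adjusted p = 0.945), also with all KI arrays above all WT arrays. Such a complete separation upwards held for 1.79% of all genes. Without the array labelled KI 1 the differences were 0.31 for Ildr2 and 0.15 for Itga6.

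Adgrl3 was 0.29 higher in KI (95% interval 0.02 to 0.55, adjusted p = 0.945), with overlapping arrays and most values near the background limit. It was 0.32 without the array labelled KI 1 and 0.19 without KI 3. Mcam was 0.13 higher (adjusted p = 0.977), Cdh1 and Cd9 0.09 each (both adjusted p = 0.986) and Thy1 0.05 (adjusted p = 0.989). Itgb1 was -0.03 (adjusted p = 0.990) and Epcam -0.04 (adjusted p = 0.986). Without the array labelled KI 1 these differences were 0.11 for Mcam, 0.06 for Cdh1, 0.12 for Cd9, 0.09 for Thy1, -0.11 for Itgb1 and -0.02 for Epcam. The median 95% interval of a gene in this comparison reached 0.22 to either side, and the intervals of the 9 genes are drawn in the plot of differences.

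Against their own littermates alone, KI testes differed by 0.38 in Ildr2, 0.24 in Itga6, 0.21 in Mcam and 0.27 in Adgrl3. Those WT arrays also served the KO comparison, so the values are again a description. No adjusted p was under 0.930, and limma called 0.0% of all genes, while 4.51% (1000) had an unadjusted p under 0.05. All KI arrays lay above all 3 littermate arrays for Ildr2, Itga6, Mcam and Cd9, and the same held for 8.37% of all genes. Without the array labelled KI 1 these differences were 0.34, 0.18, 0.18 and 0.30 in the order given.

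Set against each other, KI testes had lower levels than KO testes of the 6 genes that were higher in KO, in every array. The differences were -0.71 for Adgrl3, -0.47 for Ildr2, -0.47 for Cdh1, -0.40 for Cd9, -0.27 for Mcam and -0.17 for Itga6. Itgb1 differed by -0.19 with overlapping arrays, Epcam by -0.01 and Thy1 by 0.10. Without the array labelled KI 1 the differences were -0.67 for Adgrl3, -0.52 for Ildr2, -0.50 for Cdh1, -0.37 for Cd9, -0.29 for Mcam, -0.23 for Itga6, -0.27 for Itgb1, 0.01 for Epcam and 0.15 for Thy1. KI arrays lay wholly below KO arrays for 12.6% of all genes. limma called 0 of 22180 genes (0.0%; 3993 at an unadjusted p under 0.05, and 5 called with a trend and robust prior), so none of the 9. The count was 721 genes without KO 2, 1 of them a member, and 57 of 11090 with genes above the median level only. This contrast uses the KO arrays that chose the genes and is a description.

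Each mutant was also measured against its own littermates, as a description for the KO values and for what is derived from them. KO stood above WT of KO litters by 1.02 in Adgrl3, 0.80 in Ildr2, 0.50 in Cdh1, 0.39 in Cd9, 0.35 in Itga6 and 0.32 in Mcam, with all KO arrays above all 3 littermates in these 6 genes and in 10.2% of all genes. In that contrast 0 of 9 members and 0.00902% of all genes (2 genes; 3480 at an unadjusted p under 0.05, and 41 called with a trend and robust prior) were called. Without KO 2 the counts were 2 of 9 members and 605 genes. The KO difference exceeded the KI difference by 0.75 in Adgrl3 (95% interval 0.30 to 1.203), 0.42 in Ildr2 (95% interval -0.02 to 0.85), 0.35 in Cdh1 (95% interval 0.03 to 0.67) and 0.20 in Cd9. For Mcam and Itga6 the excess was 0.11 each. Without the array labelled KI 1 it was 0.72 in Adgrl3, 0.46 in Ildr2, 0.38 in Cdh1, 0.17 in Cd9, 0.13 in Mcam and 0.17 in Itga6. limma called 0 of all genes for this difference of differences (0.0%; 1293 at an unadjusted p under 0.05).

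Wild types of the 2 litter origins overlapped in all 9 genes. KI-litter WT minus KO-litter WT was -0.20 for Cd9, -0.16 for Mcam and -0.11 for Cdh1, and between -0.08 and 0.04 for the other genes. The adjusted p was 0.891 for both Cd9 and Mcam. limma called 0.0% of all genes here, 5.29% (1174) had an unadjusted p under 0.05, and a trend and robust prior called 1. Without WT 5 it called 50 genes and none of the 9.

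Markers of other cells moved with the KO values. The marker lists were chosen with earlier results of these data known, so their counts are a description. All 14 measured meiotic markers fell in KO, with a median difference of -1.11. Among them were Majin (-1.22, adjusted p = 0.0204), which joins telomeres to the nuclear envelope, and Syce3 (-0.88, adjusted p = 0.0204), part of the synaptonemal complex. The list's mean log2 level ran from 8.63 to 9.30 in WT, from 8.53 to 8.95 in KI and from 7.56 to 8.47 in KO. Of 12 Sertoli markers 11 were higher in KO, with a list median of 0.35. An unadjusted p under 0.05 by limma was found for 10 of the 12, and for 5375 of all 22180 genes. The adjusted threshold was passed by 2, Inhbb (0.38, adjusted p = 0.0358) and Fshr (0.36, adjusted p = 0.0416). The list mean was 9.41 to 9.67 in KO, 9.26 to 9.43 in KI and 9.19 to 9.40 in WT. Of 7 peritubular muscle markers 6 were higher in KO (median 0.22) and 1 was called, Cald1 (0.31, adjusted p = 0.0395). The list means were 8.59 to 8.69 in KO (8.585 at the lowest), 8.49 to 8.56 in KI and 8.36 to 8.54 in WT. The part of these shifts in the members' differences was not tested.

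For lists of cells that carry single members, ranges overlapped between KO and WT. For the endothelial, pericyte and duct lists only KO 2 fell within the WT range, with KO 1 and KO 3 above it. KO 2 was also the KO array with the highest meiotic mean (8.473, against 7.556 in KO 1 and 7.615 in KO 3). The endothelial list, set beside Mcam, had 0 of 10 markers called and all 10 above the limit, with Cdh5 at 0.31 (adjusted p = 0.245) and list means of 6.76 to 7.17 in KO, 6.88 to 7.06 in KI and 6.73 to 6.99 in WT. In the pericyte list all 6 markers were higher in KO (median 0.25) and 1 was called, Abcc9 (0.33, adjusted p = 0.0422). Its means were 6.98 to 7.20 in KO, 6.91 to 7.09 in KI and 6.79 to 7.02 in WT. The T cell list, set beside Thy1, had 0 of 4 called and only 2 of 4 genes above the limit, with Cd3e at -0.34 (adjusted p = 0.133) and means of 5.29 to 5.48 in KO, 5.38 to 5.50 in KI and 5.36 to 5.76 in WT. The list of epididymal and duct epithelium, set beside Cdh1 and Epcam, had 0 of 8 called, 6 of 8 above the limit, Esr1 at 0.32 (adjusted p = 0.146) and means of 5.77 to 5.96 in KO, 5.67 to 5.78 in KI and 5.71 to 5.88 in WT.

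The germ cell lists moved in different ways. Of 17 markers of undifferentiated spermatogonia 4 rose and 1 fell, Neurog3 (-1.29, adjusted p = 0.00181), a factor of committed progenitors, while Gfra1, the GDNF co-receptor, rose by 0.70 (adjusted p = 0.00208). The list means overlapped, at 6.93 to 6.98 in KO, 6.89 to 6.97 in KI and 6.81 to 6.96 in WT. Of 8 markers of differentiating spermatogonia 1 fell, Prss50 (-0.78, adjusted p = 0.0234), with list means of 8.41 to 8.55 in KO and 8.55 to 8.68 in WT. Of 7 markers of all germ cells 4 fell, with Rnf17 at -0.69 (adjusted p = 0.0319) and Dazl at -0.39 (adjusted p = 0.0328), and list means of 9.53 to 9.90 in KO and 9.89 to 10.46 in WT. Interstitial lists overlapped, though for fibroblasts and macrophages KO 1 and KO 3 lay above every WT array and only KO 2 within the WT range. All 8 fibroblast markers were higher in KO (median 0.24) and 2 were called, Pdgfra (0.56, adjusted p = 0.0406) and Dlk1 (0.72, adjusted p = 0.0416). Of 5 Leydig markers 1 rose, Hsd3b1 (0.63, adjusted p = 0.0388). Differences in the Leydig list ran from -1.74 to 1.83, and 3 of the 5 had an unadjusted p under 0.05 by limma. Of 7 macrophage markers 0 were called (C1qb, 0.18, adjusted p = 0.401).

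**Figure D3:**
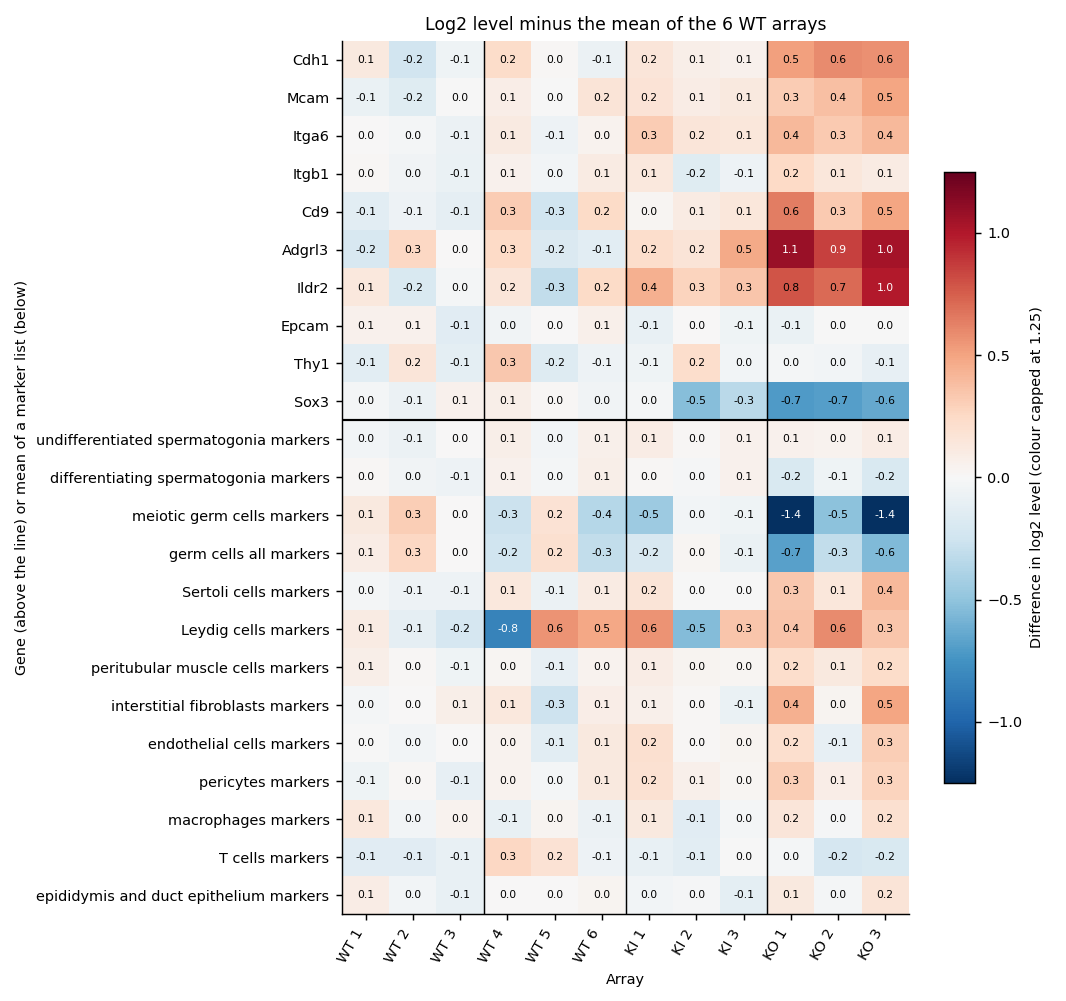
Log2 level of each array minus the mean of the 6 WT arrays, as colour, for the 9 genes and Sox3 (upper rows) and for the mean of each cell type marker list (lower rows). The KO columns are high for Adgrl3, Ildr2 and Cdh1 and low for the meiotic list, whose KO means run from 7.56 to 8.47 against 8.63 to 9.30 in WT.

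Among other genes of the same adhesion systems a minority passed the adjusted threshold. Of 171 genes in 7 lists, the 9 members left out, 16 were called higher and 2 lower in KO and 153 did not pass. An unadjusted p under 0.05 by limma was found for 70 of the 171, and for 5375 of all 22180 genes. The share called was 10.5%, against 4.86% of all genes. These lists were chosen with earlier results of these data known, so nothing is read from that share or from these counts. The median difference was 0.13, beside 0.04 over all genes. The count of calls, 18 over all arrays, was 1 without KO 1, 1 without KO 3, 3 without each of WT 1, WT 2, WT 3 and WT 5, 10 without KI 2, 6 without KI 3 and 43 without KO 2. It was 1 against the WT of KO litters alone.

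Laminins, the ligands of alpha6 integrins, and other basement membrane proteins such as type IV collagens held the most calls of the 7 lists: 6 of 21 rose, with a list median of 0.28. Lama2, a laminin alpha chain, rose by 0.46 (adjusted p = 0.0313), with a KO level of 10.34 ± 0.20 (SD, n = 3) and a WT level of 9.88 ± 0.09 (SD, n = 6). Lamb1, a laminin beta chain, rose by 0.48 (adjusted p = 0.0354) with overlapping arrays, and Col4a4, a type IV collagen chain, by 0.33 (adjusted p = 0.0310). Of 23 other integrin subunits 1 rose, Itgb8 (0.53, adjusted p = 0.0395), which forms an RGD-binding receptor with the alphav chain. The integrin list's median was 0.08.

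None of 24 cadherins, catenins and nectins was called by limma. Ctnnb1, which encodes the beta-catenin that binds E-cadherin's tail, is named because its probes gave the highest signal in the list, and stood at 0.08 (adjusted p = 0.478). Of 27 tetraspanins and partners 1 rose, Tspan5 (0.31, adjusted p = 0.0368), a tetraspanin that escorts the protease ADAM10. Of 28 angulin, tight junction and immunoglobulin-type adhesion genes 1 rose, Marveld2 (0.36, adjusted p = 0.0365), the tricellular junction protein that angulins recruit. The medians of these lists were 0.10, 0.17 and 0.12.

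Among 31 adhesion G protein-coupled receptors and latrophilin ligands 4 rose, with a list median of 0.14. The receptor Adgrg1 rose by 0.48 (adjusted p = 0.0334). The teneurins Tenm3 (0.29, adjusted p = 0.0367) and Tenm4 (0.36, adjusted p = 0.0392), which belong to the family that latrophilins bind, also rose. Celsr1 was the other (0.61, adjusted p = 0.0418), a cadherin-type receptor of planar polarity named after its value was seen.

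The list of other spermatogonial surface proteins had 3 of 19 higher and 2 lower, with a median of 0.20. Gfra1 stood at 7.27 ± 0.06 (SD, n = 3) in KO, 6.85 ± 0.05 (SD, n = 3) in KI and 6.57 ± 0.09 (SD, n = 6) in WT. The KO difference of Gfra1 ran from 0.25 to 0.73 over 22 alternatives of the processing and was called in 21 of them. Ret, the signalling partner of Gfra1, rose by 0.71 (adjusted p = 0.0161), and the receptor tyrosine kinase Epha2 by 0.66 (adjusted p = 0.0161). The genes that fell, named after their values were seen, were Ly6k (-0.79, adjusted p = 0.0373) and Plppr3 (-0.32, adjusted p = 0.0488).

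In KI against WT, limma called 0 of these 171 genes (12 at an unadjusted p under 0.05; median 0.04; 0 with a trend and robust prior), and 0 without the array labelled KI 1. In KI against KO it also called 0 (40 at an unadjusted p under 0.05; median -0.09; 0 with a trend and robust prior), 13 without KO 2 and 0 without the array labelled KI 1. The gene of highest signal in each list, a choice for naming only, differed by between -0.0021 and 0.14 in KI against WT and by between -0.41 and 0.20 in KI against KO. These genes were Ctnnb1, Itgb5, Nid1, Cd81, Adgrg1, Cldn11 and Ly6e. Of the list genes named for a rise in KO, the KI mean exceeded the WT mean by 0.40 in Ret and 0.28 in Gfra1. In Tenm3 it did so by 0.25 and in Tenm4 by 0.20 (limma adjusted p = 0.945 for each of these genes). The other genes named for a rise in KO lay between 0.0019 and 0.15 in KI against WT.

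**Figure D4:**
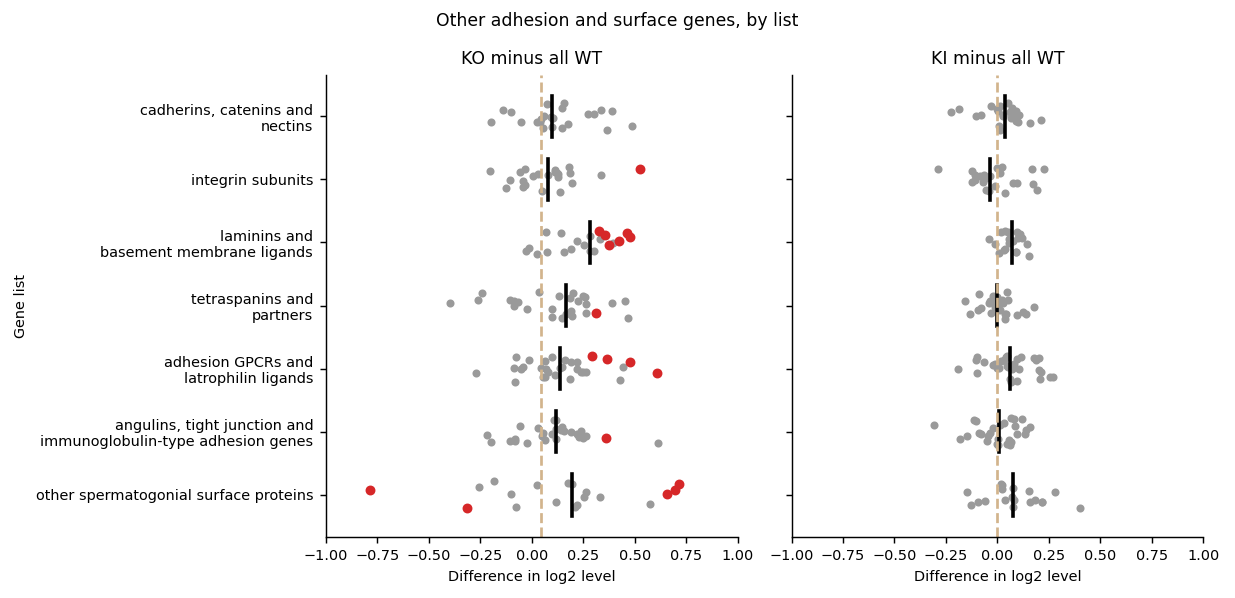
KO minus WT (left) and KI minus WT (right) difference in log2 level of each gene of the 7 adhesion lists, one row per list, with genes of adjusted p under 0.05 in red, the list median as a black bar and the median of all genes as a dashed line. In KO, laminins and basement membrane ligands have 6 of 21 genes in red and a median of 0.28 and the cadherin list has 0 of 24, and in KI none of the 171 genes is red.

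A second transcript cluster existed for Cdh1, Cd9, Adgrl3 and Ildr2, each at a lower signal. For Cdh1 it lay at 3.52 in KO and 3.67 in both KI and WT, and for Adgrl3 at 4.30, 4.35 and 4.28 in KO, KI and WT, all under the background limit. For Cd9 it lay at 5.15, 5.10 and 5.12, also under that limit. For Ildr2 it lay at 5.76, 5.61 and 5.76, above the limit and with no KO difference. The KO differences of these genes were carried by 1 cluster each.

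The genes whose level followed each member most closely over the 12 arrays were sought among 14538 genes above the background limit. These correlations share genotype differences and arrays and are a description only. For Adgrl3 they were Hbp1 and Etv5 (both r = 0.952), for Ildr2 Il10rb (0.973) and Lzts2 (0.965), and for Cdh1 Qdpr (0.969) and Mvb12a (0.935). Mcam was followed by Padi2 (0.978) and Suclg2 (0.965), Cd9 by Tfpi (0.971) and Igf2 (0.970), and Itga6 by Ccn4 (0.970) and Ret (0.962). Itgb1 was followed by Gpx1 (0.957) and Bach1 (0.941). The values were lower for Thy1, with Tex35 (0.804) and Hmg20b (0.803), and for Epcam, with 4833420G17Rik (0.788) and Lsm3 (0.778).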

How the data were processed

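Whole-testis RNA was hybridised to Affymetrix arrays, 1 per testis. The deposited values are log2 signals per transcript cluster, made with Affymetrix Expression Console, Partek 6.6 and RMA, per the submitters' processing notes. The array annotation build is not given in the sources used here. Of 41345 clusters, 23521 had 1 gene symbol, 1814 several and 16010 none. The single-symbol cluster of highest mean stood for each of 22180 genes (1082 had several).

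limma 3.58.1 (R 4.3.3, lmFit and eBayes, two-sided) was fitted to all 12 arrays with 3 genotype groups, or 4 label groups for littermate contrasts. p-values were Benjamini-Hochberg adjusted over all genes at 0.05. The fit was first tested on simulated data with known changes. Precision depends on how many arrays each group has and on the spread of each gene.

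The members and the gene lists were chosen with earlier results of these data known. Named genes are all members, the 3 of smallest p per adhesion list among those called (otherwise the gene of highest level), up to 2 per marker list by the same order, and the 2 of highest correlation with each member. Some genes of the lists are not analysed here, and counts are over the genes measured. Alternatives changed the normalization, filter, cluster choice, prior, array weights, controls, arrays left out and the replicate block. Promoters came from RefSeq, GRCm38.p6.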

Additional observations from a re-analysis of the deposited data

How the results depend on the processing

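The KO differences of Cdh1, Mcam, Cd9, Itga6, Itgb1, Adgrl3 and Ildr2 were positive under every alternative run, and averaging in the dimmer second clusters gave the lowest values of Adgrl3 (0.51), Ildr2 (0.42), Cdh1 (0.20) and Cd9 (0.26). The number of members called in KO against WT was 6. It was 0 against the own littermates and 2 when only KO and WT were fitted, and 0 to 6 with 1 array left out. Against KO littermates it went from 0 to 1 with genes above the median level only and to 2 with a trend and robust prior (0 to 2 with 1 array left out), and in KI against KO it was 0 to 1. The 18 adhesion-list calls became 49 with genes above the median level only, 38 with a trend and robust prior, 1 against the own littermates, 3 with only KO and WT fitted, and 1 to 43 with 1 array left out. In KI against KO the lists had 0 calls, 1 with genes above the median level only and 0 to 13 with 1 array left out. Over all genes the 1078 KO calls became 2459 of 11090 genes above the median level, 2048 with a trend and robust prior, 30 with only KO and WT fitted, and 2 to 2323 with 1 array left out. The cause was not tested.

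Signs turned only in small differences that were not called. In KI against WT, Cd9 was -0.014 against WT of KO litters, Itgb1 0.011 against the own littermates, and with 1 array left out Thy1 ran from -0.043 to 0.11 and Itgb1 from -0.11 to 0.0345. Against KI littermates Thy1 ran from -0.0098 to 0.17 and Itgb1 from -0.0675 to 0.0731, with -0.0009 under array weights. Between wild types the ranges were -0.17 to 0.083 for Thy1, -0.054 to 0.043 for Epcam, -0.0765 to 0.18 for Adgrl3 and -0.22 to 0.049 for Ildr2.

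Whether the replicate numbers pair the samples is not settled by these values. Deviations of same-numbered arrays correlated between -0.03 and 0.16, and those of differently numbered arrays between -0.19 and 0.08. The highest were same-numbered: WT 2 with KO 2 (0.16), KO 1 with KI 1 (0.14) and KO 2 with KI 2 (0.11). WT 1, though, correlated more with KO 3 (0.026) than with KO 1 (0.0074). The fit with the replicate block left out the WT of KO litters, so its only wild types were those of KI litters. In it 6 members were called in KO against WT, and KI against WT gave 0.011 for Itgb1. KI against KO gave 1 adhesion-list gene and 247 of all genes.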

Other observations

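Within the 6 WT arrays, a relation chosen after the values were seen, several members were higher where the mean of the meiotic markers was lower. Of 9 relations computed, 7 had a negative Pearson r, but without WT 4 and WT 6 only those of Cdh1, Mcam and Ildr2 stayed negative. Mcam had r = -0.941 (exact permutation p = 0.00694, adjusted 0.0625) and Spearman rho = -0.943 (exact permutation p = 0.0167, adjusted 0.15), and r = -0.785 without WT 4 and WT 6, the arrays farthest from the median. Ildr2 had r = -0.81 (exact permutation p = 0.0625, adjusted 0.188) and rho = -0.886 (exact permutation p = 0.0333, adjusted 0.15), and r = -0.555 without them. Cd9 had r = -0.855 (exact permutation p = 0.0458, adjusted 0.188) and rho = -0.6 (exact permutation p = 0.242, adjusted 0.535), but r = 0.119 without them, so that relation rests on those arrays. The same turn was seen for Itga6 (-0.728 to 0.337), Itgb1 (-0.761 to 0.335) and Thy1 (-0.249 to 0.744). Adgrl3 had r = 0.01 (exact permutation p = 0.968, adjusted 0.968) and Cdh1 r = -0.435 (exact permutation p = 0.393, adjusted 0.59; -0.587 without them). None passed after adjustment, and all tests were two-sided.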
